A study of Mus musculus with 8 samples.

Results

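Sarcomere proteins other than the myosin heavy chains were followed as 41 genes, chosen by name from the 53647 gene identifiers of the count tables: thin filament, myosin light chain, Z-disc, M-band and titin-associated genes. The choice was made with earlier results of these data known. Of the 41, 40 had enough counts to be tested, out of 15603 genes tested in all. The remaining one, Myl3, had 0 counts in each of the 8 libraries, which allows up to 3 counts per library. The RNA came from cultures of wild-type (WT) mouse primary myotubes, the multinucleated fibres that myoblasts form when they fuse. Myoblasts from limb muscle of pups 2 to 3 days old were differentiated in medium with 5% horse serum and harvested after 72 h. The 4 groups, of 2 libraries each, were control, OSM, LIF and IL6, and each cytokine was given at 250 ng/ml for 48 h. What the control cultures received in place of a cytokine is not given in the sources used here. A culture of this kind holds whatever limb cells came along with the myoblasts, and has no nerve, blood supply or load. Whether replicates were separate animals or dishes is not given in the labels, so the p-values measure only the spread between these samples, which may be technical.

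The sarcomere is the contractile unit of striated muscle. Thin filaments of actin, carrying tropomyosin and the calcium-sensing troponin complex, slide past thick filaments of myosin, whose heads carry the light chains and whose shafts carry myosin-binding proteins. Thin filaments are anchored by alpha-actinin in the Z-disc, thick filaments are joined in the M-band, and titin and nebulin span the lattice. Many of these proteins come in fast, slow and embryonic or cardiac forms encoded by separate genes, and young myotubes express forms of each kind together. All 3 cytokines, OSM, LIF and IL6, bind receptor complexes that contain gp130, and muscle wasting is known for loss of contractile protein. The question put to these genes was whether their transcripts moved with each cytokine, and whether fast forms moved differently from slow or embryonic ones.

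Each library held between 29482077 and 30025471 counts, of which the 41 genes took 4.78% and 4.55% in the control libraries, 4.18% and 4.39% with IL6, 4.36% and 4.12% with LIF, and 4.01% and 4.03% with OSM. The share was thus lower in every cytokine library than in either control library. In a culture, fewer myotubes and less of these transcripts per myotube cannot be told apart. The label of the cells was checked against 8 myotube markers, all of them detected. Their CPM (read counts set against the scaled library total) summed to 13968 to 14291 in control and 12545 to 13657 with IL6. The sum was 12363 to 13221 with LIF and 12164 to 12322 with OSM. Myh3 made up most of it, at 7888 and 7779 CPM in control. Among the markers Myog, a differentiation factor, was at 1253 and 1014 CPM in control, 819.8 and 752 with OSM and 842 and 842 with LIF, and was called lower with both, as was Myh8. The rest were not called with either cytokine. Ryr1 and Chrna1 lay slightly above control, by 0.074 and 0.022 on the log2 scale with OSM and 0.096 and 0.052 with LIF. Cacna1s changed by 0.0075 with OSM and −0.059 with LIF, and Myh3, Ckm and Mymk lay below control with both. The 6 myoblast and proliferation markers summed to 692 to 815 CPM in control, 523 to 559 with LIF and 243 to 281 with OSM. Of these, 4 (Mki67, Top2a, Ccnb1 and Cdk1) were lower with OSM and with LIF, and 2 (Pax7 and Myf5) were higher with OSM. The 6 fibroblast markers summed to 1652 to 1716 CPM in control, 1983 to 2046 with LIF and 2058 to 2166 with OSM, with Lum at 0 throughout. Col3a1, which makes up most of that sum, was called higher with OSM and LIF and Pdgfra with OSM. Col1a1 lay the other way, at 309 and 169 CPM in control and 72.1 and 84.7 with OSM, a log2 change of −1.61 (SE 0.47, adjusted p 0.0858) that did not pass. Dcn, with log2 changes of 0.17 with OSM and −0.12 with LIF, was not called. Thy1 had at most 0.0336 CPM in any library and was too low to test. For smooth muscle, the 5 markers summed to 679.6 to 799 CPM in control, 754 to 788 with LIF and 918 to 936 with OSM. With OSM Acta2 and Smtn were higher, Tagln was lower, as it was with LIF, and Myh11 had at most 0.301 CPM. The 7 cardiac markers summed to at most 4.33 CPM, with Nppa and Nppb at 0 and Myh6 lower with OSM and LIF. Macrophage markers summed to 1.96 to 2.25 CPM in control and 4.06 to 4.55 CPM with OSM. Cd68, which passed the test, made up nearly all of that sum, at 4.28 and 3.83 CPM with OSM. Ptprc, Adgre1 and Csf1r had at most 0.0992, 0.0336 and 0.239 CPM in any library and were too low to test. The adipocyte marker Fabp4 was called higher with OSM, at 1.51 and 1.24 CPM against 0.377 and 0.470 in control. The other adipocyte markers, Adipoq and Plin1, had at most 0.101 and 0.0342 CPM in any library and were too low to test. The part that these other cells had in the sarcomere results was not tested.

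Levels between genes were compared as control CPM per kilobase of exon, because a long transcript collects more reads than a short one. The regulatory light chain of fast fibres, Mylpf, and skeletal alpha-actin, Acta1, stood highest, at 4174 and 3934 and at 4034 and 3771 CPM per kilobase in the 2 control libraries, and their values overlapped. Next came Tnnc1, the slow and cardiac troponin C, at 2306 and 2034, then the fast essential light chain Myl1 at 1699.6 and 1724 and cardiac alpha-actin, Actc1, at 1550.2 and 1464. Each of these 3 was separated from its neighbours by more than the spread of the pair. From Tnnc2 to Tnnt1, 7 genes followed between 979 and 395 CPM per kilobase, and Tnnc2 (1074 and 884) overlapped Tnnt3 (925 and 921). At the low end, the fast myosin-binding protein C gene Mybpc2 had 3.01 and 2.78 CPM per kilobase, the slow regulatory light chain Myl2 2.08 and 0.827, the fast calsarcin Myoz1 0.889 and 1.14 and myospryn, Cmya5, 0.466 and 0.527, and the pairs of Myl2 and Myoz1 overlapped. The members thus spanned a range from 0.497 to 4054 CPM per kilobase. Exon lengths were those of a different annotation release than the counts, so they set the order only roughly.

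**Figure D1:**
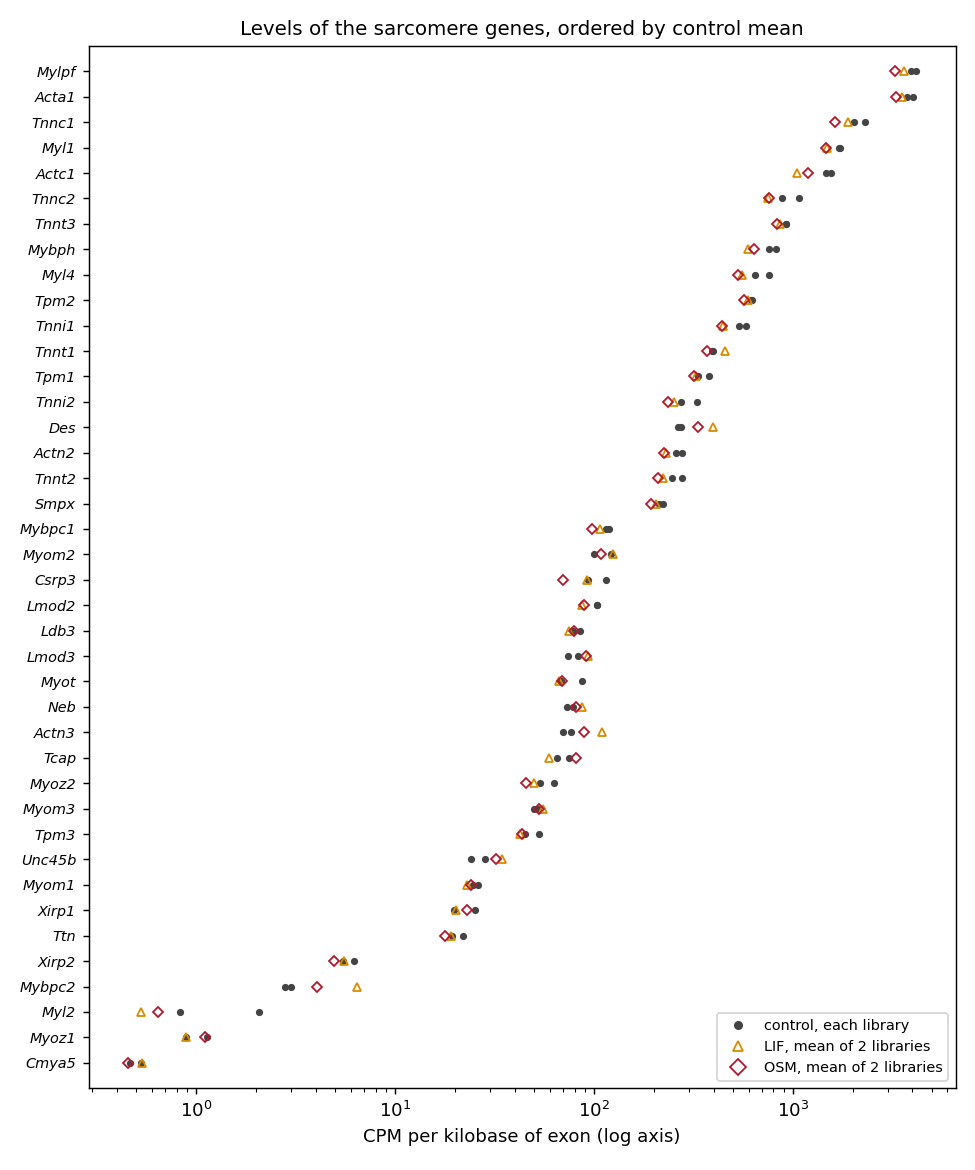
Control level of each sarcomere gene in CPM per kilobase of exon on a log axis, ordered by the control mean, with both control libraries as dots and the LIF and OSM means as open symbols. Mylpf is highest at 4054 and Cmya5 lowest at 0.497; Myl3, at 0 counts, is not drawn.

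OSM moved 20 of the 40 tested genes and LIF moved 12, at an adjusted p under 0.05 in edgeR's quasi-likelihood test with Benjamini-Hochberg adjustment over all genes. With OSM, 15 fell and 5 rose, where 10.6% of all tested genes fell and 10.8% rose. With LIF, 6 fell and 6 rose, where 3.46% of all genes fell and 4.2% rose. Of the 2171 genes averaging 100 CPM or more, 276 fell and 331 rose with OSM, and 94 fell and 165 rose with LIF. With IL6 none was called, as for 0 of all genes. The changes were small: of all these calls, Mybpc2 with LIF was the only one that reached 1.5-fold. The median log2 change over the 40 was −0.16 with OSM, −0.15 with LIF and −0.12 with IL6, against −0.0029, −0.0079 and 0.00061 over all tested genes. Among the 2171 genes averaging 100 CPM or more it was −0.0042 with OSM and 0.0085 with LIF. Values below 0 were found for 30 of the 40 with OSM, 30 with LIF and 34 with IL6. Of all 15603 genes tested, 7932, 8083 and 7759 were below 0. The 3 comparisons share the control libraries, which were themselves further apart in these genes than in others: the median SD of the log2 level between the control pair was 0.11 over the sarcomere genes and 0.056 over all genes of at least 100 CPM. The same held for the IL6 pair, at 0.097 and 0.069, and the LIF pair, at 0.063 and 0.028, while the OSM pair had 0.033 and 0.034.

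The counts rested on few libraries. In fits with 1 library left out, the lone library of its group is assumed to vary like the others. The numbers below count every gene called in such a fit, not only the main calls that remained. Without control replicate 1 they include genes outside the main calls, Myot for OSM and Myot and Myom2 for LIF. The 20 genes called with OSM became 4 without OSM replicate 2 (Tnnc1, Myl4, Csrp3 and Des), 6 without OSM replicate 1 and 8 without control replicate 1. The 12 called with LIF became 3 without LIF replicate 2 (Actn3, Mybpc2 and Des), 7 without LIF replicate 1, 7 without control replicate 1, and 6 without either OSM library, which enter only the shared spread. With any 1 library left out, and under every other scaling, filter and model tried at the same threshold, the falls of Tnnc1, Myl4 and Csrp3 with OSM and the rises of Actn3, Mybpc2 and Des with LIF kept their calls.

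**Figure D2:**
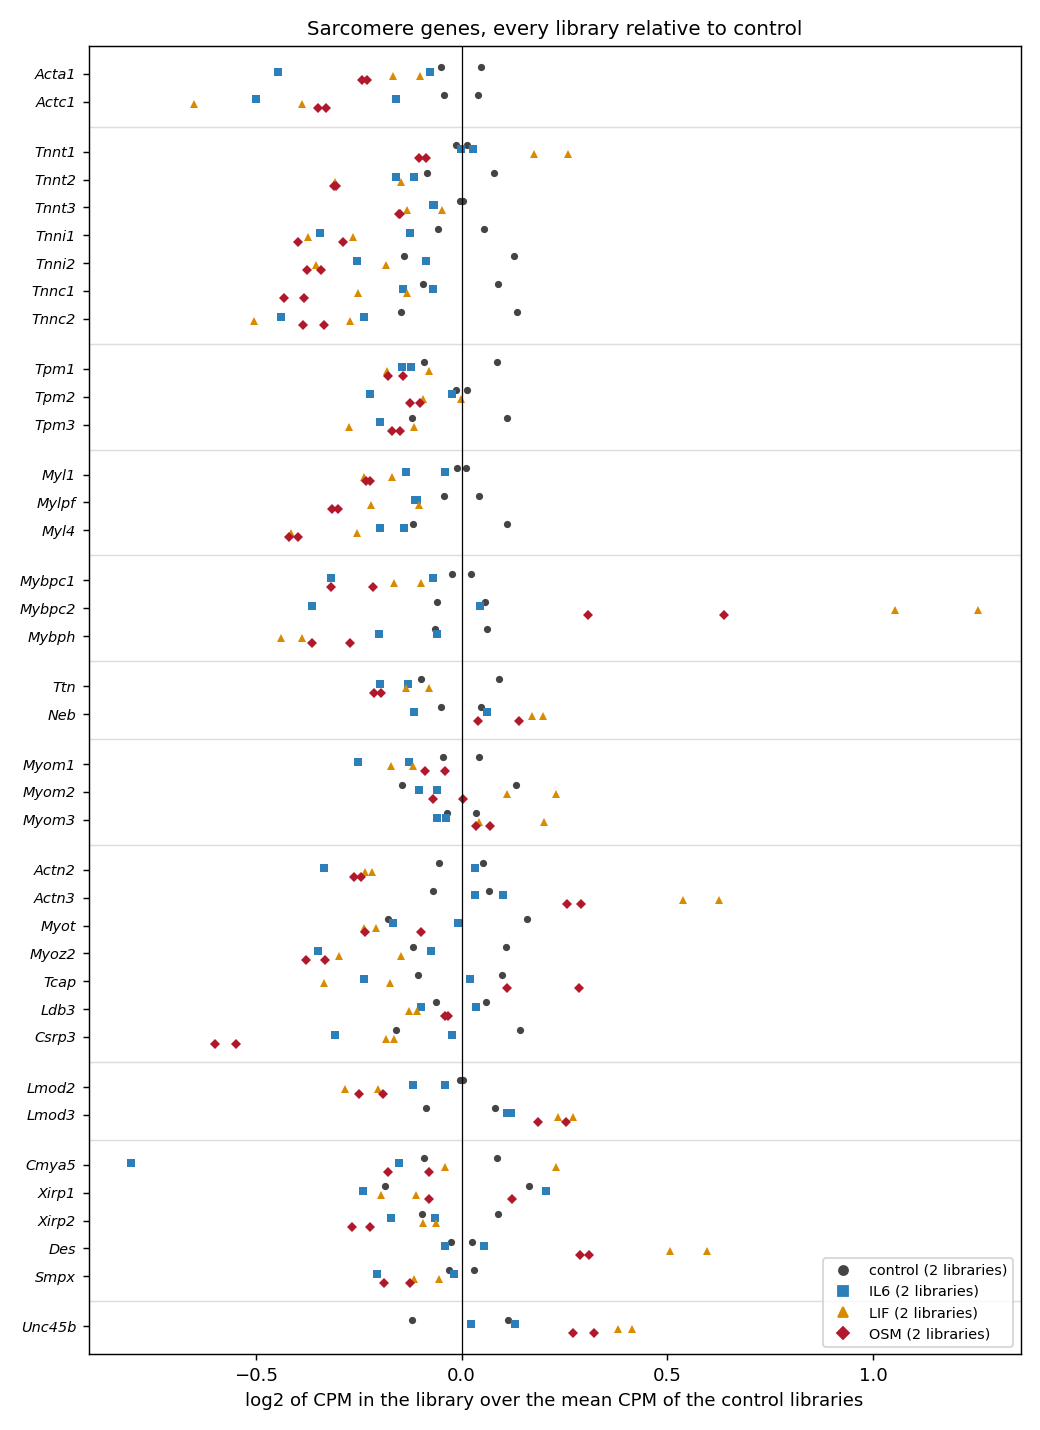
Each of 38 sarcomere genes in each library, as log2 of its CPM over the control mean, with genes grouped by role from actins at the top to the chaperone Unc45b at the bottom. Circles are control, squares IL6, triangles LIF and diamonds OSM, 2 of each per gene. Most diamonds lie left of 0, while Mybpc2, Actn3, Des and Unc45b lie right of it with LIF and OSM; Myl2, Myl3 and Myoz1, with fewer than 100 counts on average, are left out.

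Stretches of 250 bases before the transcription start are shown for 5 of the 6 genes whose calls held in every fit tried at the same threshold, and for the pair of alpha-actin genes, to set the regulatory sequence beside the direction of change. They are RefSeq sequences of GRCm38.p6, read 5′ to 3′ on the strand of the gene. Capitals mark matches on either strand to the E-box CANNTG, bound by myogenic factors such as MyoD and myogenin, and to the CArG box, bound by serum response factor. The MEF2 site was searched as well and is absent from these 8 stretches. Among the RefSeq promoters, 31 of the 41 genes had an entry, with 37 start sites. Actn3 is named only.
Mybpc2, which rose, lies at chr7:44524670-44524919, minus strand, and Des, which rose, at chr1:75360042-75360291, plus strand.
Mybpc2: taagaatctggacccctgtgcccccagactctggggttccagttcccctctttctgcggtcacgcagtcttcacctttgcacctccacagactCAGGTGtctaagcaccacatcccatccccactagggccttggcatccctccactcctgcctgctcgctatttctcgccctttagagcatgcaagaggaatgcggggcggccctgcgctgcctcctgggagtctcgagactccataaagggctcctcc
Des: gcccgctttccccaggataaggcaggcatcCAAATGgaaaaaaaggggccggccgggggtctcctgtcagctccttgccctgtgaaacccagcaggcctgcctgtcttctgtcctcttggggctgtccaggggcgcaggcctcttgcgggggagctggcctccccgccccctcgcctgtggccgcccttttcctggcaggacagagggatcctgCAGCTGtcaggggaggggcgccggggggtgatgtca
Tnnc1 (chr14:31208062-31208311, plus strand), Myl4 (chr11:104550413-104550662, plus strand) and Csrp3, with a first start at chr7:48843672-48843921, minus strand and another at chr7:48848052-48848301, minus strand, fell with OSM. The starts of Csrp3 are named in order of coordinate, so on the minus strand the one named first lies downstream of the other.
Tnnc1: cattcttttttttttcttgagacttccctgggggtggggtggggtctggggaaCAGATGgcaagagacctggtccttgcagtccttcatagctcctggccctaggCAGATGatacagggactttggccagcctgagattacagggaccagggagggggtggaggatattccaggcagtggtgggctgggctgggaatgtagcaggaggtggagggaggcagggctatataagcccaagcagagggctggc
Myl4: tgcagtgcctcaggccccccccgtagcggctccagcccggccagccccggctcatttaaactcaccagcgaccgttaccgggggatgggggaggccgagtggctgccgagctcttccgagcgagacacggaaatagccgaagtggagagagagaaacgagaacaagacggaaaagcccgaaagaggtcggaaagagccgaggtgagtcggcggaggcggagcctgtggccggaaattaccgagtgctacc
Csrp3 first start: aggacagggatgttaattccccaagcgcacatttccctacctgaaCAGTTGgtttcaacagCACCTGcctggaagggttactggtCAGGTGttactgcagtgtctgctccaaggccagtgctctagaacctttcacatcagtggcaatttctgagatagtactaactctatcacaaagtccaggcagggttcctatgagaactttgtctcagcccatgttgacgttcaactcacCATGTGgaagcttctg
Csrp3 other start: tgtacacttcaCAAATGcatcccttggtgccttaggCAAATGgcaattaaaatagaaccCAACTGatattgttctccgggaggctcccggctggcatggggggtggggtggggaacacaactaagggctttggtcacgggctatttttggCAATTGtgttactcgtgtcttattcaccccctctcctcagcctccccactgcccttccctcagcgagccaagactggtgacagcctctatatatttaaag
Acta1 (chr8:123894776-123895025, minus strand) and Actc1 (chr2:114052876-114053125, minus strand) each hold a CArG box, 73 and 47 bases before the start.
Acta1: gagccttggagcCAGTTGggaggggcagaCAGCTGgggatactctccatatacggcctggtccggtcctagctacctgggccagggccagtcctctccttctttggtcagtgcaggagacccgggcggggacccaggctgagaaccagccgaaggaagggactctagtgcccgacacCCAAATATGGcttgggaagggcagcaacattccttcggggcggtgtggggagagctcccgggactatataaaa
Actc1: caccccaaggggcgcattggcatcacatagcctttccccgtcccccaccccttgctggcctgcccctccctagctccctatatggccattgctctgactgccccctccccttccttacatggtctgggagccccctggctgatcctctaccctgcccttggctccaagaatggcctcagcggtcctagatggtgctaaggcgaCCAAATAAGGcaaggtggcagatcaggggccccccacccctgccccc

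Among the genes that rose, Mybpc2 holds 1 E-box and Des 2. Of those that fell with OSM, Tnnc1 holds 2, each start of Csrp3 holds 4, and Myl4 holds neither an E-box nor a CArG box. E-boxes were thus present on both sides of the response. Over all 37 member promoters, an E-box was found in 86.5%, against 66.2% of the 32851 RefSeq promoters cut to the same length. A CArG box stood in 16.2% against 1.47%: Acta1, Actc1, Myl3, Myom1 and both starts of Ldb3, whose windows overlap. A MEF2 site stood in 10.8% against 2.92% (Ttn, Myom3, Myoz2 and Xirp2). The MCAT motif CATTCC, on either strand, was in 21.6% against 12.6%. The STAT-type motif TTCNNNGAA was in 0 of 37, against 7.02% of all promoters, which says only that these letters do not occur in these windows. A match describes the sequence and was not tested as a binding site, and CANNTG can overlap the other motifs.

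Actin forms the thin filament, and skeletal and cardiac alpha-actin are made side by side in young muscle. Actc1 (ENSMUSG00000068614), the cardiac form, had 2508 and 2369 CPM in the control libraries, 1725 and 2184 with IL6, 1863 and 1554 with LIF and 1916 and 1941 with OSM. All 6 cytokine libraries lay below both controls, with LIF replicate 2 the lowest. Its log2 change was −0.51 (SE 0.11, adjusted p 0.0143) with LIF and −0.34 (SE 0.11, adjusted p 0.0460) with OSM. Acta1 (ENSMUSG00000031972), the skeletal form, had 6195 and 5792 CPM in control, 5110.0 and 5073 with OSM, 5589 and 5340.4 with LIF and 4397 and 5681 with IL6. It lay lower with every cytokine, IL6 replicate 1 lowest of all, but passed in no comparison of the main fit. Its log2 changes were −0.24 (SE 0.098, adjusted p 0.114) for OSM and −0.13 (SE 0.098, adjusted p 0.512) for LIF. Without the filter on low counts, and in a fit of OSM and control alone, Acta1 was called lower with OSM. The Actc1 calls were lost without either control library or LIF replicate 2 for LIF, and without any 1 of the 4 libraries compared for OSM.

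The troponin complex has a calcium sensor (troponin C), an inhibitor (troponin I) and a tropomyosin-binding part (troponin T). With OSM 5 of the 7 genes fell and with LIF 2 fell and 1 rose. Tnnc1 (ENSMUSG00000091898), the slow and cardiac troponin C, had 2401 and 2117 CPM in control, 1732 and 1677 with OSM, 2063 and 1897 with LIF and 2048 and 2152 with IL6. Both OSM libraries were below all others, and the log2 change was −0.41 (SE 0.074, adjusted p 0.00144). With LIF the change of −0.19 (SE 0.074, adjusted p 0.155) did not pass. Tnnc2 (ENSMUSG00000017300), the fast troponin C, had 859 and 707 CPM without cytokine, 649 and 552 with LIF, 621 and 600.2 with OSM and 578 and 664 with IL6. All 6 cytokine libraries were below both controls. It fell with both OSM and LIF, with log2 changes of −0.36 (SE 0.10, adjusted p 0.030) for OSM and −0.38 (SE 0.10, adjusted p 0.0475) for LIF.

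Of the troponin I genes, Tnni1 (ENSMUSG00000026418), the slow form, had 2085 and 1929 CPM in the control libraries, 1580.4 and 1841 with IL6, 1673 and 1549 with LIF and 1645 and 1525 with OSM. The groups did not overlap control, and the log2 change was −0.34 (SE 0.081, adjusted p 0.00897) with OSM and −0.32 (SE 0.081, adjusted p 0.0303) with LIF. Tnni2 (ENSMUSG00000031097), the fast form, had 496 and 413 CPM in control, 359 and 350.4 with OSM, 400.3 and 356 with LIF and 381 and 428 with IL6. Its OSM libraries were below both controls, a log2 change of −0.36 (SE 0.090, adjusted p 0.0141), and with LIF it changed by −0.27 (SE 0.090, adjusted p 0.107), which did not pass.

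Troponin T has 3 genes here, of which 1 rose with LIF and 1 fell with OSM. Tnnt1 (ENSMUSG00000064179), the slow form, had 878 and 862 CPM without cytokine, 1039.8 and 983 with LIF, 819 and 810.1 with OSM and 886 and 869 with IL6. Both LIF libraries were above all others. It rose with LIF, by 0.22 (SE 0.058, adjusted p 0.0375) on the log2 scale, and with OSM changed by −0.095 (SE 0.059, adjusted p 0.291). Tnnt2 (ENSMUSG00000026414), the cardiac and embryonic form, had 2141 and 1911 CPM in control, 1639.6 and 1636 with OSM, 1829 and 1638 with LIF and 1871 and 1814 with IL6. Every cytokine library was below both controls, the OSM pair lowest with LIF replicate 2. It fell with OSM, with a log2 change of −0.31 (SE 0.073, adjusted p 0.00890), and the LIF change of −0.22 (SE 0.073, adjusted p 0.0859) did not pass. Tnnt3 (ENSMUSG00000061723), the fast form, had 1464 and 1458 CPM in the control libraries, 1393 and 1396 with IL6, 1414 and 1333 with LIF and 1318 and 1314 with OSM. The cytokine libraries were all slightly below the controls. It passed in no comparison, and its change with OSM was −0.15 (SE 0.059, adjusted p 0.0912). The troponin calls apart from Tnnc1 were lost when 1 library was left out. For OSM these were OSM replicate 2 or control replicate 1 for each of the 4, and OSM replicate 1 for Tnnt2, Tnni2 and Tnnc2. For LIF they were LIF replicate 2, control replicate 1 or either OSM library, with LIF replicate 1 added for Tnni1 and Tnnt1 and control replicate 2 for Tnnt1.

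Tnnc2 is one of the genes whose reads cannot be placed with certainty. In the GENCODE M21 exons, 74.0% of its exon bases overlap Ube2c, a proliferation gene on the other strand, and whether counting used strand is not given in the sources used here. Ube2c had 34.1 and 40.0 CPM in control, 25.9 and 24.5 with LIF and 8.52 and 10.9 with OSM, a log2 change of −1.93 (SE 0.13) with OSM. Its levels were a small part of those of Tnnc2, and its part in the fall of Tnnc2 was not tested. Mybph overlaps Adora1 on the other strand over 49.9% of its exon bases, and Adora1 had 6.83 and 5.54 CPM in control and 4.21 and 3.25 with OSM. Smaller overlaps of this kind were found for Cmya5 (21.7%), Unc45b (9.04%), Des (5.86%), Mybpc1 (5.57%) and Mybpc2 (5.32%). Myl1 shares 23.4% of the 50-base stretches of its longest transcript with the pseudogene Mylf-ps, and Tpm3 17.0% with copies such as Tpm3-rs7, so counts of these are uncertain too.

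Tropomyosin lies along actin and blocks myosin until troponin moves it. None of its 3 genes passed in any comparison with control. The levels ran from 2043 to 2458 CPM for Tpm1, 1544 to 1816 for Tpm2 and 246 to 321 for the slow form Tpm3 over the 8 libraries. Their log2 changes with OSM were −0.16 (SE 0.071), −0.11 (SE 0.072) and −0.16 (SE 0.077), and with LIF −0.13 (SE 0.071), −0.047 (SE 0.072) and −0.19 (SE 0.077). All 6 values were below 0. The giant proteins passed in no comparison with control in the main fit either. Ttn, titin, the spring that links Z-disc and M-band, ran from 2078 to 2566 CPM. It changed by −0.20 (SE 0.071, adjusted p 0.0564) with OSM and −0.11 (SE 0.071) with LIF. With OSM it was called lower under upper quartile scaling, in DESeq2, without the filter on low counts and with a replicate block. Neb, nebulin, which runs along the thin filament, ran from 1872 to 2324 CPM and changed by 0.090 (SE 0.073) with OSM and 0.18 (SE 0.073, adjusted p 0.163) with LIF.

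Myosin light chains wrap the neck of the myosin head. With OSM, Mylpf, Myl1 and Myl4 fell, and with LIF, Myl4 alone was called. Myl4 (ENSMUSG00000061086), the embryonic and atrial essential light chain, had 3506 and 2993 CPM in the control libraries, 2831 and 2948 with IL6, 2725 and 2437 with LIF and 2469 and 2431 with OSM. The OSM libraries and LIF replicate 2 were lowest, control replicate 1 highest, and the log2 change was −0.41 (SE 0.081, adjusted p 0.00276) with OSM and −0.33 (SE 0.081, adjusted p 0.0238) with LIF. Mylpf (ENSMUSG00000030672), the fast regulatory light chain, had 4433 and 4177 CPM in control, 3494 and 3465 with OSM, 4006 and 3694 with LIF and 3993 and 3981 with IL6. The OSM pair was below all others. Its log2 change was −0.31 (SE 0.066, adjusted p 0.00452) with OSM, and −0.16 (SE 0.066, adjusted p 0.179) with LIF did not pass. Myl1 (ENSMUSG00000061816), the fast essential light chain, had 3525 and 3575 CPM without cytokine, 3158 and 3013 with LIF, 3024 and 3045 with OSM and 3231 and 3451 with IL6. The cytokine libraries were all below both controls. Its log2 change was −0.23 (SE 0.063, adjusted p 0.0214) with OSM, and −0.20 (SE 0.063, adjusted p 0.0728) with LIF did not pass.

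Myl2, the slow and ventricular regulatory light chain, was near the floor, with 118 and 48 counts in control, 32 and 52 with IL6, 34 and 27 with LIF and 30 and 44 with OSM. Control replicate 1 had the highest count. Its fitted log2 changes were the most negative of the 40, −1.46 (SE 0.43, adjusted p 0.0633) with LIF and −1.17 (SE 0.41, adjusted p 0.0682) with OSM, and neither passed. Among the called light chains, Myl1 lost its OSM call without control replicate 2 or any 1 of the LIF or OSM libraries, and Mylpf without either OSM library. The LIF call of Myl4 was lost without control replicate 1 or any 1 of the LIF or OSM libraries.

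Myosin-binding proteins sit on the thick filament and tune the reach of the heads. Mybpc2 (ENSMUSG00000038670), the fast myosin-binding protein C, had 10.9 and 10.04 CPM in the control libraries, 8.14 and 10.8 with IL6, 25.0 and 21.7 with LIF and 12.9 and 16.3 with OSM. The LIF pair was highest and the OSM pair lay between LIF and control. The rise with LIF was 2.23-fold, a log2 change of 1.16 (SE 0.14, adjusted p 0.000386), and with OSM the log2 change was 0.48 (SE 0.15, adjusted p 0.0344). Mybpc1 (ENSMUSG00000020061), the slow form, was far more abundant, with 539.7 and 523 CPM in control, 427 and 458 with OSM, 496 and 474 with LIF and 426 and 507 with IL6. The OSM pair was below both controls and the IL6 libraries were apart. It fell with OSM, with a log2 change of −0.27 (SE 0.077, adjusted p 0.0266), and its LIF change of −0.13 (SE 0.077) did not pass. Mybph (ENSMUSG00000042451), the related myosin-binding protein H, had 1928 and 1766 CPM without cytokine, 1411 and 1364 with LIF, 1531 and 1436 with OSM and 1607 and 1772 with IL6. The LIF and OSM libraries were below all others. It fell with both, with log2 changes of −0.41 (SE 0.071, adjusted p 0.00329) with LIF and −0.32 (SE 0.071, adjusted p 0.00621) with OSM.

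The 3 myosin-binding genes thus moved in both directions, the fast form of protein C upward and the others downward. The OSM call of Mybpc2 was lost without OSM replicate 2, LIF replicate 1 or either control library, and that of Mybpc1 without any 1 of the control, LIF or OSM libraries. Mybph lost its call without OSM replicate 2 in the OSM comparison and without LIF replicate 2 in the LIF comparison. Myomesins, which crosslink thick filaments in the M-band, passed in no comparison with control. Myom1 ran from 223 to 273 CPM, Myom2 from 892 to 1156 and Myom3 from 296 to 354. With OSM they changed by −0.064 (SE 0.063), −0.032 (SE 0.083) and 0.052 (SE 0.064) on the log2 scale, and with LIF by −0.15 (SE 0.063), 0.17 (SE 0.083) and 0.12 (SE 0.064).

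At the Z-disc, alpha-actinin crosslinks the thin filaments of neighbouring sarcomeres. Actn3 (ENSMUSG00000006457), the form of fast fibres, had 204 and 224 CPM in the control libraries, 229 and 219 with IL6, 329.6 and 310.2 with LIF and 255 and 261 with OSM. LIF gave the highest pair and OSM the next, and IL6 overlapped control. The log2 change was 0.58 (SE 0.065, adjusted p 0.000141) with LIF and 0.27 (SE 0.065, adjusted p 0.00845) with OSM. Actn2 (ENSMUSG00000052374), the form found in all fibres, had 984 and 1059 CPM in control, 852 and 863 with OSM, 879 and 868 with LIF and 810.4 and 1044 with IL6. It was lower with OSM and LIF than in both controls, but its log2 changes of −0.25 (SE 0.095, adjusted p 0.0839) and −0.23 (SE 0.095, adjusted p 0.203) did not pass. Without the filter on low counts, or in a fit of the compared groups alone, Actn2 was called with both. DESeq2 and the replicate block called it with OSM.

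Csrp3 (ENSMUSG00000030470), the muscle LIM protein of the Z-disc, had 308 and 250.3 CPM in control, 191 and 184 with OSM, 246 and 249 with LIF and 226 and 275 with IL6. The OSM libraries were the lowest pair, 32.8% below control by the fit, a log2 change of −0.57 (SE 0.10, adjusted p 0.00251), and the LIF libraries were just below control replicate 2, at −0.17 (SE 0.10, adjusted p 0.40). Myoz2 (ENSMUSG00000028116), the slow calsarcin, had 216 and 184 CPM in the control libraries, 157 and 189.9 with IL6, 181 and 163 with LIF and 154 and 159 with OSM. Both OSM libraries were below the control and LIF libraries. IL6 replicate 1 lay between the OSM libraries, and IL6 replicate 2 was inside the control range. It fell with OSM, with a log2 change of −0.35 (SE 0.097, adjusted p 0.0233), and the LIF change of −0.22 (SE 0.097) did not pass. Tcap (ENSMUSG00000007877), telethonin, the cap on the titin ends, had 62.0 and 71.4 CPM without cytokine, 59.2 and 53.0 with LIF, 81.2 and 72.1 with OSM and 56.6 and 67.7 with IL6. It lay above control with OSM and below it with LIF, without passing against control, at 0.20 (SE 0.10, adjusted p 0.191) and −0.25 (SE 0.10, adjusted p 0.182).

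Of the other Z-disc genes, Myot, myotilin, which binds alpha-actinin, ran from 146 to 191 CPM and Ldb3, a PDZ and LIM protein that binds it too, from 456 to 519.6 CPM, with no call against control. Myoz1 had at most 70 counts in a library and was not called. The OSM call of Actn3 was lost without control replicate 1 or either OSM library, and so was that of Myoz2.

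Desmin filaments tie the Z-discs to one another and to the cell membrane. Des (ENSMUSG00000026208) had 1035 and 998 CPM in the control libraries, 989 and 1056 with IL6, 1537 and 1443 with LIF and 1261 and 1241 with OSM. It was highest in the LIF pair, next in the OSM pair, and IL6 overlapped control, with log2 changes of 0.55 (SE 0.063, adjusted p 0.000181) for LIF and 0.30 (SE 0.063, adjusted p 0.00411) for OSM. Unc45b (ENSMUSG00000018845), the chaperone that folds the myosin head, had 108 and 127 CPM in control, 142 and 147 with OSM, 153 and 157 with LIF and 119.6 and 129 with IL6. It rose in both LIF and both OSM libraries, by 0.40 (SE 0.075, adjusted p 0.00581) and 0.30 (SE 0.075, adjusted p 0.0127) on the log2 scale. Xirp2 (ENSMUSG00000027022), an actin-binding protein of the costamere and the intercalated disc, had 74.1 and 65.3 CPM without cytokine, 66.8 and 65.4 with LIF, 58.0 and 59.8 with OSM and 66.7 and 61.9 with IL6. The OSM pair was the lowest, and both LIF libraries lay inside the control range. It fell with OSM, with a log2 change of −0.24 (SE 0.074, adjusted p 0.0318), while LIF gave −0.077 (SE 0.073), which did not pass.

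Leiomodins start new actin filaments, and the 2 genes moved in opposite directions. Lmod2 (ENSMUSG00000029683) had 205 and 204 CPM in the control libraries, 189 and 199 with IL6, 178 and 168 with LIF and 172 and 179 with OSM. All cytokine libraries were below both controls, LIF replicate 2 lowest. It fell, with log2 changes of −0.24 (SE 0.059, adjusted p 0.0242) with LIF and −0.22 (SE 0.059, adjusted p 0.0180) with OSM. Lmod3 (ENSMUSG00000044086), in turn, had 163 and 184 CPM in control, 207 and 197 with OSM, 204 and 209 with LIF and 187 and 189 with IL6. All cytokine libraries were above both controls, the LIF and OSM pairs the most. It rose by 0.25 (SE 0.065, adjusted p 0.0306) on the log2 scale with LIF and 0.22 (SE 0.065, adjusted p 0.0284) with OSM. Myospryn (Cmya5), the actin-binding Xin protein (Xirp1) and the small muscle protein Smpx passed in no comparison with control, at 3.37 to 6.89, 112 to 152 and 428 to 504 CPM over the libraries. The OSM calls were lost without OSM replicate 1 for Des, Unc45b, Xirp2 and both leiomodins, and without OSM replicate 2 or control replicate 1 for these apart from Des. Without control replicate 2 the call of Lmod2 was lost as well, and without either LIF library those of Lmod3 and Xirp2. The LIF call of Unc45b was lost without LIF replicate 2, those of both leiomodins without control replicate 1 or any 1 of the LIF or OSM libraries, and that of Lmod2 without control replicate 2 too.

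OSM and LIF were then compared with each other directly. Of the 40 genes, 6 differed: 5 were lower with OSM and 1 was higher, where 4.04% of all tested genes were lower and 4.01% higher. The log2 difference, OSM minus LIF, was −0.68 (SE 0.14, adjusted p 0.00871) for Mybpc2, −0.40 (SE 0.10, adjusted p 0.0397) for Csrp3, −0.31 (SE 0.059, adjusted p 0.00432) for Tnnt1, −0.31 (SE 0.064, adjusted p 0.00852) for Actn3 and −0.25 (SE 0.063, adjusted p 0.0243) for Des. For Mybpc2, Actn3 and Des, whose levels rose with both cytokines, the rise with LIF was thus the larger. Tnnt1 had risen with LIF, and Csrp3 had fallen with OSM. Tcap was the gene higher with OSM, by 0.45 (SE 0.10, adjusted p 0.0157), with 81.2 and 72.1 CPM against 59.2 and 53.0 CPM. Of these 6 differences, that of Mybpc2 reached 1.5-fold.

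The median difference over the 40 was −0.071, with 28 below 0, against −0.00059 over all genes. The genes that fell in each comparison with control did not pass the direct test: Actc1 had 0.17 (SE 0.11, adjusted p 0.426), Tnni1 −0.024 (SE 0.081, adjusted p 0.916), Tnnc2 0.023 (SE 0.10, adjusted p 0.938), Myl4 −0.075 (SE 0.081, adjusted p 0.682), Mybph 0.096 (SE 0.071, adjusted p 0.517) and Lmod2 0.023 (SE 0.059, adjusted p 0.888). That does not show that OSM and LIF acted alike on them, since these errors leave room for differences of a size like that of several changes against control. The 6 calls became 0 without OSM replicate 1, 1 without LIF replicate 1 (Tcap), 2 without OSM replicate 2 (Mybpc2 and Tcap) and 3 without LIF replicate 2 (Actn3, Tnnt1 and Mybpc2). A fit of these 2 groups alone called 12, 10 lower and 2 higher, including all 6.

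**Figure D3:**
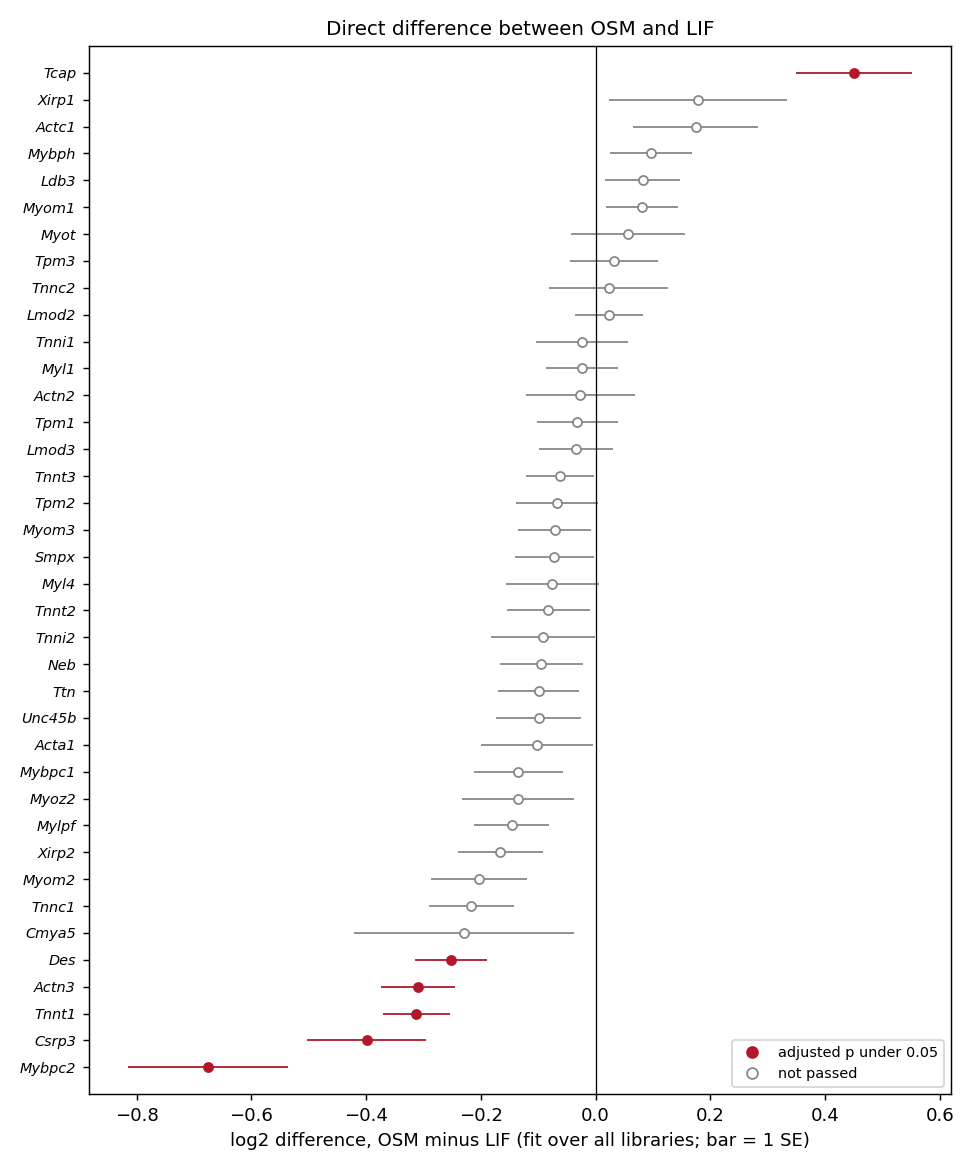
Log2 difference between OSM and LIF for 38 sarcomere genes, ordered by size, with bars of 1 SE. Filled points passed at an adjusted p under 0.05: Tcap at 0.45 on the right, and Mybpc2, Csrp3, Tnnt1, Actn3 and Des, from −0.68 to −0.25, on the left.

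With IL6, 0 of the 40 genes passed in edgeR's test and 0 in DESeq2, the lowest adjusted p being 0.943. Of the 40, 10 had an unadjusted p under 0.05 in edgeR's test. So had 795 of the 15603 genes tested and 137 of the 2171 genes averaging 100 CPM or more. The values nonetheless leaned downward, since 34 of the 40 were below 0. Of all genes 50.3% were above 0, and of the 2171 genes averaging 100 CPM or more 45.0% were. The largest of them among genes with a mean above 100 counts were Cmya5 at −0.44 (SE 0.20), Tnnc2 at −0.33 (SE 0.10) and Actc1 at −0.32 (SE 0.11). The libraries differed in this: IL6 replicate 1 was below both controls for 30 of the 40 genes and IL6 replicate 2 for 21, with medians of −0.16 and −0.070 relative to the control mean on the log2 scale. The share of all genes below both controls was not taken for these libraries, so the 30 and 21 have no reference. Without IL6 replicate 2, leaving replicate 1 alone, 5 genes were called lower (Acta1, Actc1, Actn2, Tnni1 and Mybpc1), and without the filter on low counts 3 were (Acta1, Actc1 and Tnnc2), all named here after their values were seen.

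Against IL6 in place of control, OSM differed for 5 genes, 3 higher and 2 lower, where 8.02% of all genes were higher and 7.52% lower. Mybpc2 was higher by 0.63 (SE 0.15, adjusted p 0.0119), Des by 0.29 (SE 0.063, adjusted p 0.00639) and Actn3 by 0.21 (SE 0.064, adjusted p 0.0463), while the lower pair were Csrp3 at −0.42 (SE 0.10, adjusted p 0.0198) and Tnnc1 at −0.30 (SE 0.074, adjusted p 0.0132). The number became 1 without either OSM library (Mybpc2 without replicate 1, Des without replicate 2) and 9 without either control library. The Actn3 difference from IL6 was lost in 7 of 15 alternatives: upper quartile scaling, the fit of the compared groups alone, and fits without IL6 replicate 2 or any 1 of the LIF or OSM libraries, with adjusted p from 0.0167 to 0.224 over the alternatives. LIF differed from IL6 for 4 genes, all higher, where 1.76% of all genes were higher and 1.02% lower. These were Mybpc2 at 1.30 (SE 0.15, adjusted p 0.000404), Des at 0.54 (SE 0.063, adjusted p 0.000486), Actn3 at 0.51 (SE 0.064, adjusted p 0.000785) and Unc45b at 0.32 (SE 0.075, adjusted p 0.0414). Mybpc2, Des and Actn3 kept this call in every fit tried at the same threshold, and Unc45b lost it without IL6 replicate 1 or any 1 of the LIF or OSM libraries.

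Fast forms were set against slow, embryonic or other forms as a log2 ratio of counts within each library, which does not depend on how libraries are scaled. Actn3 over Actn2 sets a fast form against the form found in all fibres, and Acta1 over Actc1 sets skeletal against cardiac actin. With 2 libraries against 2, an exact permutation test cannot go below a two-sided p of 0.333, so the ratios are described by whether the groups overlap. The largest difference from control was in Mybpc2 over Mybpc1, at −5.63 and −5.70 in control, −5.71 and −5.55 with IL6, −5.04 and −4.81 with OSM and −4.31 and −4.45 with LIF. It was higher by 1.28 with LIF and 0.74 with OSM, and IL6 overlapped control. Actn3 over Actn2 stood at −2.27 and −2.24 in control, −1.74 and −1.72 with OSM and −1.41 and −1.48 with LIF, and the IL6 libraries were apart at −1.82 and −2.26. That made differences of 0.81 for LIF and 0.53 for OSM.

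Acta1 over Actc1, skeletal over cardiac actin, had 1.30 and 1.29 in control, 1.42 and 1.39 with OSM and 1.58 and 1.78 with LIF. It differed from control by 0.39 with LIF and 0.10 with OSM. Tnnt3 over Tnnt1 went the other way, from 0.74 and 0.76 in control to 0.44 and 0.44 with LIF, a difference of −0.31. With OSM it was 0.69 and 0.70, and with IL6 0.65 and 0.68. Tnnc2 over Tnnc1 was at −1.48 and −1.58 in control, −1.48 and −1.48 with OSM, −1.67 and −1.78 with LIF and −1.82 and −1.70 with IL6. It was lower in the LIF and IL6 groups, with differences of −0.19 and −0.23.

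In Tnni2 over Tnni1 each cytokine group overlapped control, at −2.07 and −2.22 in control, −2.20 and −2.12 with OSM, −2.06 and −2.12 with LIF and −2.05 and −2.11 with IL6. Myl1 over Myl4 was at 0.0080 and 0.26 in control, a wide pair, and 0.29 and 0.33 with OSM, and Tnnt3 over Tnnt2 at −0.55 and −0.39 in control and −0.31 and −0.32 with OSM. The pairs did not share a direction: with LIF, 4 of the 8 pairs with enough counts lay beyond the control pair toward the fast or skeletal form and 2 away from it. With OSM, 6 of the 8 lay toward it and 1, Tnnt3 over Tnnt1, away from it, by −0.056. Of those 6, Tnnc2 over Tnnc1 cleared the nearer control library by less than the last digit printed. These counts of pairs have no reference, since no share over other gene pairs was taken. Any full separation of 2 libraries from 2 has a p of 0.333 in the exact permutation test. The pairs also share the control libraries, and Tnnt3 stands in 2 of them. Only some of the pairs with enough counts set fast against slow forms. Of these, Mybpc2 over Mybpc1 lay toward the fast form with LIF and OSM, and Tnnt3 over Tnnt1 away from it with both. Tnnc2 over Tnnc1 lay away with LIF and barely toward it with OSM, and Tnni2 over Tnni1 overlapped control. Of the genes classed as fast, 2 of 8 rose and 4 fell with OSM, where 10.8% of all genes rose and 10.6% fell. Of the 7 slow genes tested, 4 fell and none rose with OSM, and the 3 embryonic or cardiac genes all fell. With LIF, 2 fast genes rose and 1 fell, 1 slow gene rose and 1 fell, and 2 of the 3 embryonic or cardiac genes fell, where 4.2% of all genes rose and 3.46% fell. Over the 10 pairs with any counts the median difference was 0.17 with OSM, 0.13 with LIF and 0.068 with IL6. Without control replicate 2 these were 0.27, 0.29 and 0.10, and without control replicate 1 they were 0.11, 0.094 and 0.030. Mylpf over Myl2 and Myoz1 over Myoz2 rest on a gene with a mean under 100 counts, and Myl1 over Myl3 has no value.

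**Figure D4:**
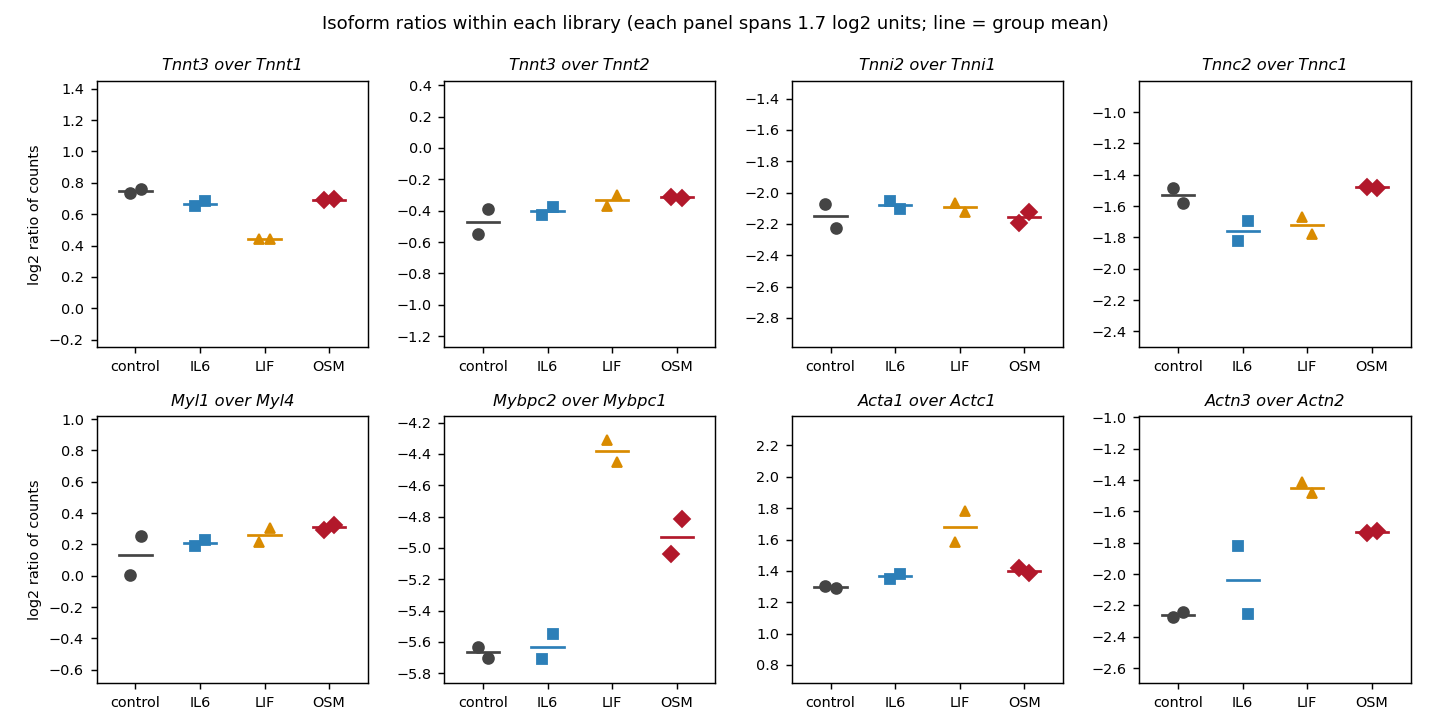
Log2 ratio of the counts of 2 isoform genes in each library for 8 pairs, with 1 point per library, a line at the group mean and the same span on each vertical axis. Mybpc2 over Mybpc1 and Actn3 over Actn2 are highest with LIF and next highest with OSM, while Tnnt3 over Tnnt1 is lowest with LIF, near 0.44.

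A further 54 sarcomere, Z-disc and assembly genes outside the 41 were read from the same fit, 52 of them tested. This list too was chosen with earlier results of these data known. With OSM 13 rose and 3 fell, where 10.8% of all tested genes rose and 10.6% fell. With LIF 5 rose and 6 fell, where 4.2% of all genes rose and 3.46% fell. The median log2 change was 0.026 with OSM and 0.011 with LIF. Csrp1, a LIM protein of smooth muscle and non-muscle cells, went from 114 and 146 CPM to 221 and 206 CPM, 0.72 (SE 0.095, adjusted p 0.000199) on the log2 scale, with 131 and 135 CPM under LIF. Tpm4, a non-muscle tropomyosin, went from 304 and 304 to 469.5 and 466 CPM, 0.62 (SE 0.063, adjusted p 1.03e-05), while the 3 tropomyosins of the main list did not pass. Mylk2, the skeletal myosin light chain kinase, changed by 0.51 (SE 0.13), zyxin, Zyx, by 0.37 (SE 0.072) and the Z-disc LIM protein gene Pdlim3 by 0.37 (SE 0.067). Among genes with over 100 counts the falls were Hspb8, a small heat shock protein, at −0.46 (SE 0.094), and Actn4, a non-muscle alpha-actinin, at −0.32 (SE 0.059). The remaining fall was in Nebl, with a mean of 24 counts.

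Against LIF, OSM was higher for 5 of these 52 genes and lower for 1, where 4.01% of all genes were higher and 4.04% lower. Csrp1 differed by 0.68 (SE 0.095, adjusted p 0.000741), Tpm4 by 0.57 (SE 0.063, adjusted p 7.09e-05) and Zyx by 0.34 (SE 0.072, adjusted p 0.00967). Of the 5 smooth muscle markers, Acta2 and Smtn were called higher with OSM, by 0.31 and 0.47 on the log2 scale. Tagln was called lower, at −0.59 (SE 0.15), Cnn1 had −0.61 (SE 0.50), which did not pass, and Myh11 was too low to test, and the part of such cells in these rises was not tested. The 16 OSM calls became 7 without OSM replicate 1 and 10 without OSM replicate 2. The 11 LIF calls became 2 without LIF replicate 1, 3 without LIF replicate 2, 6 without control replicate 2 or OSM replicate 1, 7 without OSM replicate 2, and 17 without either IL6 library. The 6 direct calls became 2 without OSM replicate 1 or either LIF library.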

How the data were processed

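RNA-seq was done on 8 libraries. The values are raw read counts per gene as the authors deposited them, from a TruSeq Stranded library kit per the labels' protocols. The submitters' processing notes name FastQC 0.11.9, MultiQC 1.12, Trim Galore 0.6.5, STAR 2.7.3a, HTSeq 0.11.1, DESeq2 1.34.0 and the build GRCm39 (mm39), without the order of use. The strand setting and the annotation release are not given in the sources used here. Rows that name no gene held 11.7% to 12.7% of the deposited counts and were left out.

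All genes passing edgeR's expression filter (minimum count 10) were fitted together in all 8 libraries with TMM scaling and the quasi-likelihood test of edgeR 4.0.16 in R 4.3.3, with 1 mean per group and no covariate. P-values were adjusted by Benjamini-Hochberg over all genes tested within each comparison, and a gene was called under 0.05. The biological coefficient of variation was 6.42%, on 4 residual degrees of freedom before pooling across genes. CPM used the TMM library sizes. Intervals and floors from counts cover counting error only. Isoform ratios are log2 of counts with 0.5 added. Replicates of a group differed by more than sampling noise (chi-square per gene 3.04 to 12.3), so none was merged.

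The members and lists were chosen with earlier results of these data known. Every library is given for members called in some comparison or in an isoform pair with a mean of at least 100 counts, and of the other sarcomere genes the 5 largest rises and falls with OSM among those called with that mean. Alternatives were RLE and upper quartile scaling, DESeq2 1.42.0, no filter, the compared groups alone, a 1.5-fold minimum, a replicate block, each library left out and, chosen after seeing the data, TMM without the members. Exon lengths came from GENCODE M21 and promoters from RefSeq, both on GRCm38, and no coordinates were carried between builds.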

Additional observations from a re-analysis of the deposited data

How the results depend on the processing

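No member reversed direction among its calls, and reversal was not examined for the other sarcomere genes. RLE or upper quartile scaling and TMM without the members kept every count of calls within 1.5 times. With a 1.5-fold minimum, the members called became 0 for OSM and 1 each for LIF, OSM minus LIF, OSM minus IL6 and LIF minus IL6, and of the other sarcomere genes 3 were called for OSM, 2 for LIF and 2 for OSM minus LIF. Without the filter on low counts, the members called were 20 for LIF, 3 for IL6, 9 for OSM minus IL6 and 9 for LIF minus IL6, and 18 other genes for LIF. Fitting OSM and LIF alone called 12 members and 15 other genes. DESeq2 called 8 members for OSM minus IL6. Leaving out 1 library gave 4 to 24 members for OSM, 3 to 17 for LIF, 0 to 5 for IL6, 0 to 7 for OSM minus LIF, 1 to 9 for OSM minus IL6 and 3 to 6 for LIF minus IL6. Of the other genes it gave 7 to 23, 2 to 17, 0 to 5 and 2 to 8 for OSM, LIF, IL6 and OSM minus LIF. The median isoform ratio ran from 0.11 to 0.27 for OSM, 0.091 to 0.29 for LIF and 0.030 to 0.10 for IL6. The cause of these shifts was not tested, apart from the smaller number of samples or the larger number of genes that the setting itself brings. Replicate numbers are shared by the groups, but the labels do not say that they pair the libraries, so the main fit had no block. The differences between replicates 1 and 2 correlated across genes by 0.0071 to 0.18. Such correlations cannot show whether the libraries were paired. A fit with the replicate block called 22, 13 and 0 members for OSM, LIF and IL6, 6 for OSM minus LIF, 8 for OSM minus IL6 and 5 for LIF minus IL6. With 2 libraries a group, Myl2, Myl3, Myoz1 and Cmya5 are limited by their low counts.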
